A study of Callithrix jacchus with 39 samples.

Results

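The genes described here encode subunits of potassium, sodium and calcium channels, and were followed through marmoset embryonic stem cells (ESCs) in naive and primed states and through early marmoset embryos. A gene was a member where its marmoset symbol began as those of the potassium channel (KCN), voltage-gated sodium channel (SCN and a digit) or voltage-gated calcium channel (CACN) families and where it reached a mean of 1 CPM (gene counts per 1e6 counts of a library) in at least 1 of the 13 groups of libraries. Of 30811 genes in the counts, 93 had such a symbol and 73 of these reached that level. The members were thus chosen by their measured CPM in these same libraries, so membership is a description and not a result, and SCN9A was singled out because it was the leading channel gene of naive cells.

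The study measured poly(A)+ RNA from the common marmoset, Callithrix jacchus, and set out to describe the conversion of primed ESCs to a naive-like state. The tested ESC groups were naive TgON cells of DSY-c2 and naive TgOFF cells of N40. Each was set against the primed Tg cells of its own name, and primed cells titled DSY127 and No.40 completed the 6 ESC groups. The 7 embryo groups were morula stage embryos, 5 stages of the inner cell mass (ICM; early blastocyst, blastocyst, expanded, hatching and hatched) and the postimplantation epiblast. Every group had 3 libraries. The labels do not define Tg and give no culture media or agents. They also leave unstated where the 3 libraries of a group come from, so a p-value here measures the spread among these libraries, which may be technical. Each ESC group is 1 line, TgON occurs in DSY-c2 alone and TgOFF in N40 alone, so the transgene label and the line cannot be told apart.

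Voltage-gated sodium, calcium and potassium channels are membrane proteins that open when the membrane voltage changes and let their ion pass. The pore of a sodium or calcium channel is 1 large alpha subunit, whereas a potassium channel pore is assembled from several smaller subunits, and beta, alpha2delta and gamma subunits change how the pore is gated or how much of it reaches the surface. Other potassium channels open with calcium or sodium inside the cell (KCNN, KCNMA1, KCNT), pass current mainly inward (KCNJ) or leak at rest (KCNK). These families are best known from neurons, muscle and secretory cells. As in most cells, potassium conductances contribute to the resting membrane voltage of pluripotent cells.

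Each ESC library held 38.8 to 78.7 M counts (M, 1e6) and each embryo library 45.3 to 59 M. Levels are CPM of the total and are not corrected for transcript length, so they are compared between groups for 1 gene and never between genes. The state labels were checked on marker lists. The 6 naive markers found in the counts summed to 2893 to 3159 CPM in DSY-c2 naive libraries against 734.6 to 1429 CPM in DSY-c2 primed libraries, and to 3642 to 3997 CPM in N40 naive libraries against 307.6 to 333.4 CPM in N40 primed libraries. All 6 were called higher in both naive groups, and 5 and 6 of 6 primed markers were called lower in DSY-c2 and N40. Library 2 of the hatched blastocyst ICM stood apart from the other ICM libraries in SCN9A, so embryo results for that gene are given with and without it. It was singled out by its SCN9A value itself, so the results without it are descriptive. It also stood apart in the 6 primed markers, which summed to 945.5 CPM there and to at most 334.2 CPM in any other ICM library. In bulk RNA, fewer cells that express a gene and less RNA per cell cannot be told apart.

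Members were spread over states and stages rather than shared by all of them, and 9 of the 73 had counts in all 39 libraries. The epiblast held the highest group mean of 19 members, DSY127 of 15, No.40 of 8, DSY-c2 naive cells of 7, DSY-c2 primed cells of 6, N40 primed cells of 5, N40 naive cells of 2, the morula of 4, the blastocyst ICM of 3, the early blastocyst ICM of 2, and the expanded and hatched ICM of 1 each. The members other than SCN9A summed to 285.7 to 365.4 CPM in the 6 naive libraries and to 495.0 to 798.6 CPM in the 12 primed libraries, without overlap. They summed to 177.4 to 297.7 CPM in the morula, 99.07 to 199.9 CPM in the 15 ICM libraries and 557.0 to 594.4 CPM in the epiblast. Such sums follow the genes with the highest CPM most, and members entered by their level in these same groups, so the sums are descriptive. Just inside the threshold were KCNAB1 at 1.02 CPM, KCNQ5 at 1.07 CPM and SCN11A at 1.07 CPM in their highest group. Just outside were KCNK4 at 0.650 CPM, KCNE4 at 0.610 CPM and KCNC2 at 0.508 CPM. The other 17 matched genes below 1 CPM were CACNA2D4, CACNG1, CACNG8, KCNA7, KCNC1, KCND2, KCND3, KCNH7, KCNJ3, KCNJ5, KCNJ9, KCNK16, KCNK18, KCNS1, KCNT1, KCNU1 and SCN2A.

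**Figure D1:**
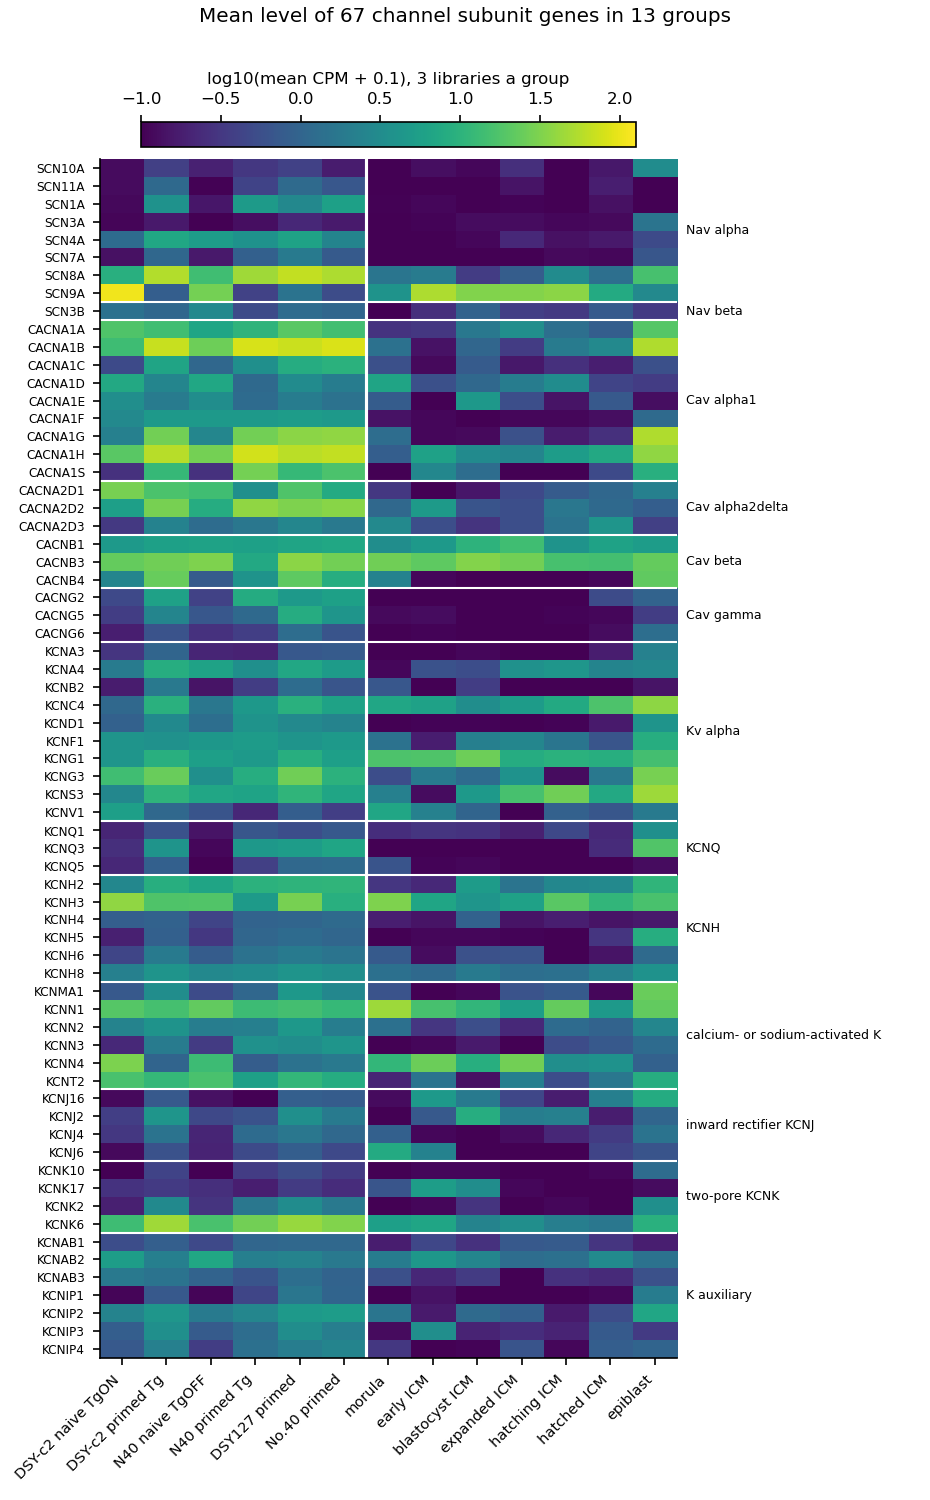
Mean level of 67 of the 73 channel genes in the 13 groups, as log10 of mean CPM plus 0.1, with genes in rows by family and groups in columns (naive beside primed cells of the same name, then the embryo stages in order). Brighter is higher, and colours compare groups within a row. SCN9A and KCNN4 are brighter in the naive columns than in the primed columns and bright in most ICM columns, and many other rows are brighter in the primed and epiblast columns than in the ICM columns.

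SCN9A encodes the pore-forming subunit Nav1.7, known for setting the excitability of pain-sensing neurons. It read 96.5, 127 and 97.2 CPM in the 3 DSY-c2 naive libraries, against 0.922, 0.565 and 0.725 CPM in the DSY-c2 primed libraries. In N40 it read 37.5, 22.0 and 25.7 CPM in naive libraries, against 0.381, 0.0515 and 0.480 CPM in primed libraries. Every naive library was above every primed library, and the ratio of group means was 145 in DSY-c2 and 93.4 in N40. Since this gene was chosen for that contrast, no test is given for it. DSY127 cells had 1.22, 1.79 and 1.24 CPM and No.40 cells 0.671, 0.361 and 0.247 CPM. In order of mean level, DSY-c2 naive cells (107 ± 17.3 CPM, SD, n = 3 here and for the other groups) stood above N40 naive cells (28.4 ± 8.12 CPM), followed by DSY127, DSY-c2 primed, No.40 and N40 primed cells. The libraries of DSY-c2 primed and No.40 cells overlapped, as did those of No.40 and N40 primed cells. The other neighbouring groups in that order did not overlap.

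In embryos SCN9A was present at the morula, higher in most ICM libraries and variable within each stage. It read 3.62, 5.10 and 2.74 CPM in the morula, 89.4, 13.8 and 51.9 CPM in the early blastocyst ICM, 50.6, 37.3 and 10.1 CPM in the blastocyst ICM and 54.8, 7.11 and 37.5 CPM in the expanded ICM. The hatching ICM had 31.9, 64.5 and 11.7 CPM, the hatched ICM 8.999, 0.0377 and 14.2 CPM and the epiblast 7.10, 0.822 and 0.530 CPM. Of the 15 ICM libraries, all but hatched library 2 read above the highest morula library (5.10 CPM) and the highest epiblast library (7.10 CPM, beside 7.11 CPM in an expanded ICM library). SCN9A fell in the epiblast relative to the mean of the 5 ICM stages by 3.38 ± 1.24 on the log2 scale (SE, adjusted p = 0.0349). Without hatched library 2 the change was -3.60 (adjusted p = 0.00718). The call ended without epiblast library 2 (-2.88, adjusted p = 0.136), without epiblast library 3 (-2.83, adjusted p = 0.133) and when the fit held epiblast and ICM libraries alone (-3.33, adjusted p = 0.0501). Against the morula the 5 ICM stages gave a log2 difference of 2.86 ± 1.20 that did not pass the threshold (adjusted p = 0.101). It passed without hatched library 2 (2.96, adjusted p = 0.0332) and with DESeq2 (2.83, adjusted p = 0.00825). Over the 7 stages the adjusted p was 0.0721, with 0.0221 when hatched library 2 was left out and 0.0444 when epiblast library 1 was left out. Because hatched library 2 was picked for its low SCN9A, the smaller adjusted p without it carries no separate support.

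In the RefSeq order of genes on the calJac240_pri assembly, SCN7A lies next to SCN9A on one side, with the muscle gene XIRP2 the next protein-coding gene beyond it. On the other side SCN1A is the nearest gene matched in the counts, and 4 genes known by RefSeq identifiers only lie between it and SCN9A. XIRP2 had a mean of at most 0.0531 CPM in the primed Tg and naive groups, and SCN7A and SCN1A were lower in both naive groups, as given with the other sodium channels. The libraries were made with a stranded kit, but the strand setting of the counting is not given in the sources used here, so reads of an antisense transcript over a channel gene could not be separated from its own.

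KCNN4 encodes KCa3.1, a calcium-activated potassium channel known from lymphocytes, red blood cells and epithelia. It read 29.8, 28.1 and 34.0 CPM in DSY-c2 naive cells against 0.797, 0.518 and 1.36 CPM in DSY-c2 primed cells, and 19.8, 9.79 and 10.3 CPM in N40 naive cells against 0.953, 0.399 and 0.813 CPM in N40 primed cells. The groups did not overlap in either line. KCNN4 rose by 5.26 ± 0.47 (log2, SE, adjusted p = 1.05e-07) in DSY-c2 and by 4.30 ± 0.45 (adjusted p = 4.88e-07) in N40. In embryos it read 7.46, 11.4 and 14.4 CPM in the morula, 43.8, 15.01 and 17.9 CPM in the early blastocyst ICM and 16.8, 3.98 and 5.34 CPM in the blastocyst ICM. It read 18.7, 3.38 and 59.95 CPM in the expanded ICM, 0.590, 2.65 and 6.65 CPM in the hatching ICM, 6.33, 3.09 and 1.71 CPM in the hatched ICM and 1.78, 0.372 and 0.265 CPM in the epiblast. KCNN4 fell in the epiblast relative to the ICM mean by 3.64 ± 1.03 (log2, SE, adjusted p = 0.00855), and this call ended without epiblast library 2 (-3.23, adjusted p = 0.0502).

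**Figure D2:**
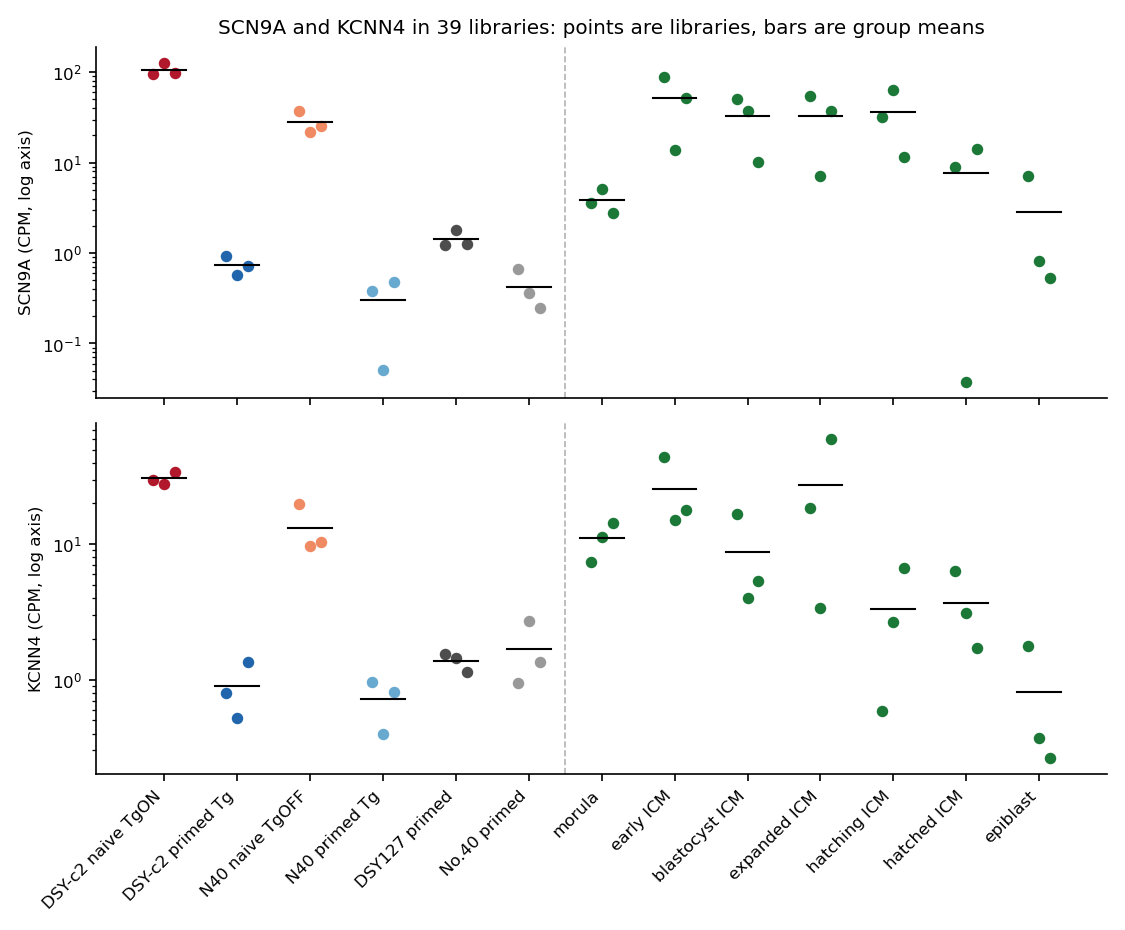
SCN9A and KCNN4 in every library, in CPM on a log axis, with 1 point per library and a bar at the mean of each group of 3. Both genes lie above their primed libraries in all 6 naive libraries, and both spread widely over the ICM stages, where hatched library 2 is the lowest point for SCN9A.

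In the comparison of naive with primed cells, most channel genes moved in the opposite direction to SCN9A and KCNN4. Of the 72 members other than SCN9A, 8 rose and 49 fell in DSY-c2 naive cells, which is 11.1% and 68.1% of them, beside 29.6% of all 17957 genes tested called higher and 29.3% called lower. In N40 naive cells 13 rose and 36 fell, which is 18.1% and 50%, beside 32.3% and 28.7% of all genes. Of the 11562 tested genes with a symbol, 32.9% rose and 32.6% fell in DSY-c2, and 35.4% rose and 31.9% fell in N40. The median log2 difference of the 72 members was -2.03 in DSY-c2 and -1.01 in N40, where the medians of all genes were 0.03 and 0.09. Among the 85 matched genes tested without the 1 CPM rule, 8 rose and 54 fell in DSY-c2 and 14 rose and 39 fell in N40. A gene that was high in primed cells alone entered the members through them, so these counts describe the members and carry no test. In DSY-c2, 6 of the 8 rises and 40 of the 49 falls were called in every refit without 1 library, and in N40, 10 of the 13 rises and 30 of the 36 falls. The like shares over all genes in these refits are not given here.

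Both lines called 33 members lower and 8 higher. The like counts over all genes are not given here, so the overlap between the lines is not read as a trait of channel genes. The 8 were CACNA1D, CACNA1E, CACNA2D1, KCNAB2, KCNH3, KCNN4, KCNT2 and KCNV1. KCNA4 was among those that fell in DSY-c2 and rose in N40. A further 14 fell in DSY-c2 alone, CACNA1A, KCNAB1 and KCNH4 fell in N40 alone, CACNB3, KCNN1 and SCN3B rose in N40 alone, and 9 passed in neither line, among them CACNA1F, CACNB1, KCNAB3, KCNF1, KCNIP2, KCNK17, KCNN2 and SCN3A. The N40 calls of CACNA1A, KCNAB1 and KCNH4 each ended when any of 3 N40 libraries was left out (adjusted p of 0.0509 to 0.189). A call in 1 line and not in the other does not show a difference between the lines, which is tested further on.

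Several marker lists of other cell types moved with this comparison. The 3 neural progenitor markers in the counts summed to 55.6 to 102 CPM in DSY-c2 naive against 633 to 684 CPM in primed libraries, and to 57.9 to 79.7 CPM in N40 naive against 586.1 to 647.8 CPM in primed libraries. Nearly all of each sum was NES, a neural filament gene, and of the 3 markers 2 fell in DSY-c2 and 1 in N40. The 8 neuron markers summed to 266.1 to 369.1 CPM in DSY-c2 naive against 553.2 to 825.1 CPM in primed libraries, but to 530.3 to 575.1 CPM in N40 naive against 419.8 to 451.2 CPM in primed libraries. Of these 8, 1 rose and 6 fell in DSY-c2, and 3 rose and 4 fell in N40. The 5 muscle markers summed to 0.666 to 3.15 CPM in DSY-c2 naive against 18.4 to 72.3 CPM in primed libraries, and were below 1 CPM in every N40 naive library, against 9.47 to 10.25 CPM in primed libraries, with MYOD1 and MYOG at 0 in both naive groups. Of the 3 muscle markers tested, 3 fell in DSY-c2 and 2 in N40. The 6 fibroblast markers summed to 70.6 to 200 CPM in DSY-c2 naive against 350 to 432 CPM in primed libraries, and to 190 to 471 CPM in N40 naive against 607 to 869 CPM in primed libraries. By gene, 1 fibroblast marker rose and 3 fell in DSY-c2, and in N40 3 rose and 2 fell, with a median log2 difference of 2.84, opposite in direction to the sums. Trophectoderm markers summed to 46.7 to 82.9 CPM in N40 naive against 9.12 to 13.2 CPM in primed libraries and primitive endoderm markers to 109 to 167 CPM against 14.98 to 24.9 CPM, while in DSY-c2 the naive and primed ranges of both lists overlapped. The part of these cell types in the channel results was not tested.

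Of the 8 sodium channel alpha subunits other than SCN9A, 7 fell in DSY-c2 and 5 in N40, and none rose in either. SCN8A, the Nav1.6 channel of the axon initial segment, read 10.5, 8.40 and 7.99 CPM in DSY-c2 naive against 63.2, 39.3 and 63.1 CPM in primed libraries, and 13.99, 12.7 and 15.02 CPM in N40 naive against 52.3, 45.1 and 38.4 CPM in primed libraries. Neither pair of groups overlapped, and the log2 changes were -2.46 ± 0.20 (adjusted p = 5.25e-08) and -1.61 ± 0.20 (adjusted p = 3.09e-06). SCN1A, a channel of inhibitory neurons, had 3 counts in all DSY-c2 naive libraries, which is 246-fold below the primed mean with a 95% counting interval of 83.7 to 1190, and fell by 6.31 ± 0.56 (log2) in N40. SCN7A, the sodium-sensing Nax channel, fell by 4.40 ± 0.78 and 3.53 ± 0.73, and SCN11A, the Nav1.9 channel of sensory neurons, by 5.11 ± 0.80 and 5.58 ± 0.98, in DSY-c2 and N40. SCN1A, SCN7A and SCN11A reached a mean of 1 CPM in primed groups alone. They became members through primed cells, so their falls are descriptive.

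SCN4A, the skeletal muscle channel, fell in DSY-c2 by 2.45 ± 0.38 and differed by 0.52 ± 0.35 in N40 (adjusted p = 0.213). SCN3A, a channel of the embryonic brain, was at or below 0.157 CPM in every naive and primed Tg library and passed in neither line. SCN3B, a beta subunit that modulates the sodium channel pore, rose in N40 by 2.84 ± 0.47 (adjusted p = 6.3e-05). SCN3B read 4.47, 2.04 and 1.93 CPM in N40 naive against 0.483, 0.437 and 0.333 CPM in primed libraries, and 1.31, 1.65 and 1.08 CPM in DSY-c2 naive against 0.625, 1.43 and 0.883 CPM in primed libraries, where the groups overlapped.

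Calcium channel alpha1 subunits split by gene. In DSY-c2 naive cells 5 of 9 fell and 2 rose, and in N40 naive cells 6 fell and 2 rose. CACNA1S, the L-type channel that senses voltage in skeletal muscle, read 0.320, 0.157 and 0.0555 CPM in DSY-c2 naive against 10.3, 8.84 and 16.4 CPM in primed libraries, and 0.152, 0.159 and 0.214 CPM in N40 naive against 20.6, 33.1 and 31.6 CPM in primed libraries. It fell by 5.92 ± 0.48 (log2, SE, adjusted p = 4.62e-08) and by 7.23 ± 0.50 (adjusted p = 6.02e-09). CACNA1G, a T-type channel that opens near the resting voltage, read 2.65, 1.18 and 2.65 CPM in DSY-c2 naive against 40.1, 15.02 and 27.2 CPM in primed libraries, and 2.48, 2.56 and 2.54 CPM in N40 naive against 35.2, 23.5 and 24.3 CPM in primed libraries. It fell by 3.50 ± 0.37 (adjusted p = 7.69e-07) and 3.35 ± 0.36 (adjusted p = 8.57e-07), and the T-type channel CACNA1H fell by 1.39 ± 0.22 and 1.32 ± 0.22.

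CACNA1C, the L-type channel of heart and smooth muscle, read 0.576, 0.470 and 0.125 CPM in DSY-c2 naive against 7.81, 4.07 and 6.99 CPM in primed libraries, and fell by 3.86 ± 0.48 (log2, adjusted p = 4.27e-06). In N40 it fell by 1.69 ± 0.43 (adjusted p = 0.00305). CACNA1B, the N-type channel of nerve terminals, fell by 2.20 ± 0.35 and 1.57 ± 0.34. CACNA1D, an L-type channel that opens at lower voltage than CACNA1C, went the other way. It read 10.1, 7.20 and 4.51 CPM in DSY-c2 naive against 2.06, 3.28 and 2.16 CPM in primed libraries, and 8.08, 6.15 and 6.42 CPM in N40 naive against 0.660, 1.52 and 0.973 CPM in primed libraries. It rose by 1.69 ± 0.39 (adjusted p = 0.00143) and 2.80 ± 0.41 (adjusted p = 1.77e-05), without overlap in either line. The R-type channel CACNA1E rose by 0.97 ± 0.32 (adjusted p = 0.0146) in DSY-c2, a call that ended without DSY-c2 primed library 4 or 5 (0.84 each, adjusted p of 0.0668 and 0.0702), and by 1.60 ± 0.32 in N40.

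The accessory calcium channel subunits also split. CACNA2D1, an alpha2delta subunit that binds gabapentin, read 32.0, 28.6 and 25.3 CPM in DSY-c2 naive against 16.8, 15.8 and 16.6 CPM in primed libraries, and 18.4, 11.0 and 12.3 CPM in N40 naive against 4.05, 3.49 and 2.64 CPM in primed libraries. It rose by 0.96 ± 0.20 (log2, adjusted p = 0.000552) and 2.13 ± 0.21 (adjusted p = 2.03e-07), while its relative CACNA2D2 fell by 2.22 ± 0.20 and 2.15 ± 0.20. CACNB4, a beta subunit, read 3.63, 2.77 and 0.916 CPM in DSY-c2 naive against 26.4, 16.9 and 28.8 CPM in primed libraries and fell by 3.15 ± 0.36 (adjusted p = 1.68e-06), and fell by 2.40 ± 0.37 in N40. CACNB3, another beta subunit, read 27.1, 32.5 and 36.3 CPM in N40 naive against 11.9, 5.63 and 4.67 CPM in primed libraries and rose by 2.21 ± 0.31 (adjusted p = 1.42e-05), while DSY-c2 gave -0.04 ± 0.30. CACNG2, which carries AMPA receptors to synapses, read 0.256, 0.172 and 0.722 CPM in DSY-c2 naive against 6.28, 5.09 and 5.99 CPM in primed libraries, and 0.207, 0.252 and 0.481 CPM in N40 naive against 8.22, 7.81 and 8.05 CPM in primed libraries. It fell by 3.73 ± 0.45 (adjusted p = 2.84e-06) and 4.57 ± 0.46 (adjusted p = 3.54e-07). CACNG2 reached a mean of 1 CPM in primed groups alone, so its calls use the values that made it a member.

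**Figure D3:**
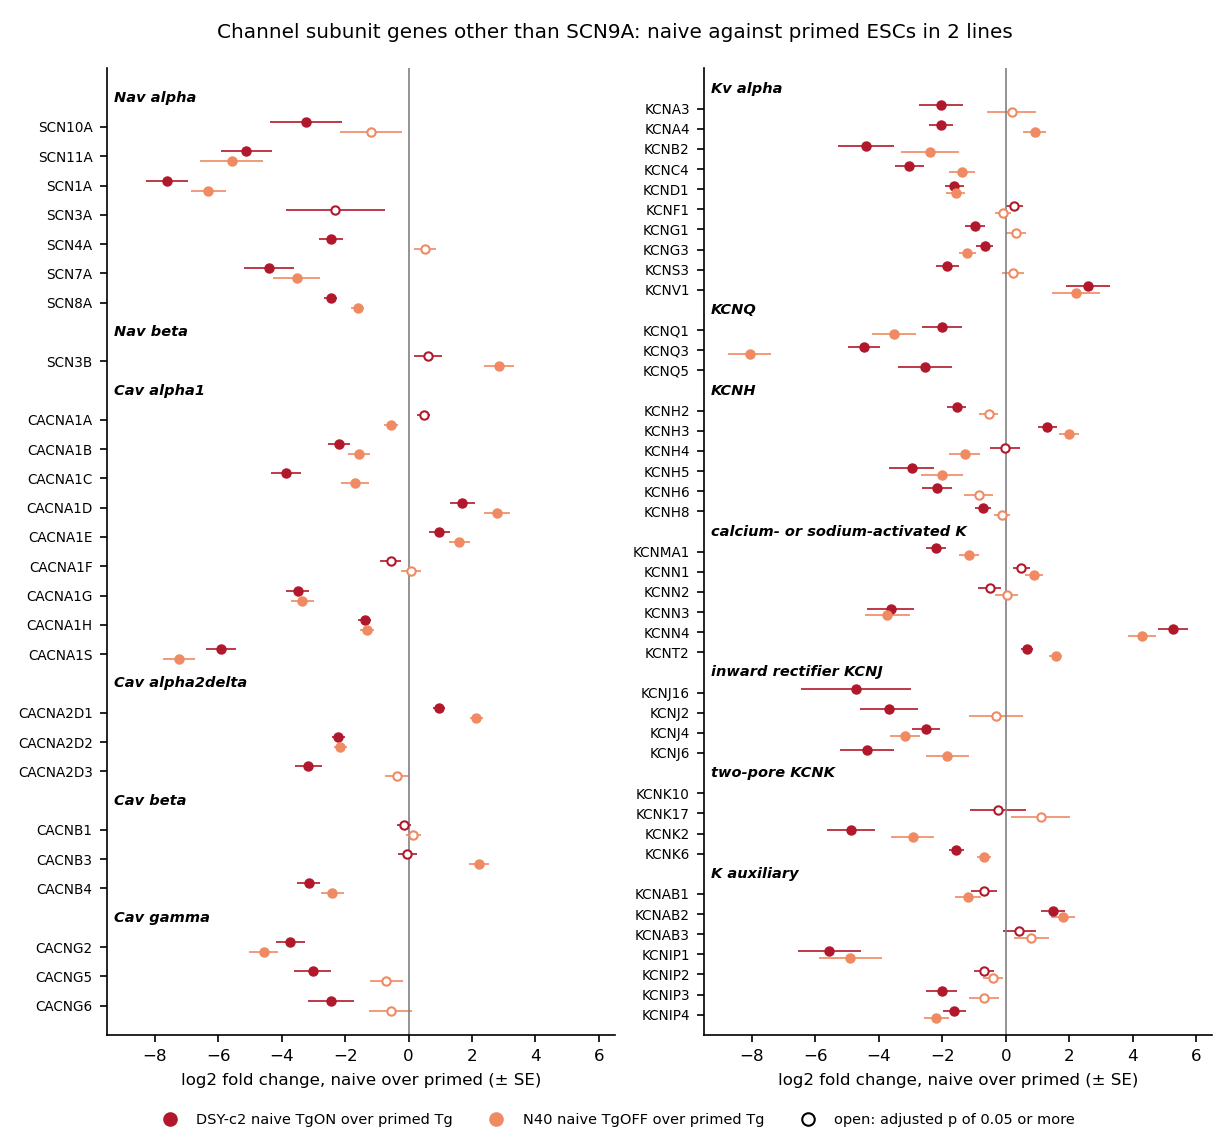
Log2 ratio of naive to primed cells for 66 members other than SCN9A, by family, with DSY-c2 in red, N40 in orange and bars of 1 SE. Open points missed the adjusted threshold of 0.05, and 5 points where a group had no count are left out. Most points lie left of 0, and KCNN4 stands farthest to the right.

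Among potassium channels, KCNQ1, KCNQ3 and KCNQ5 fell in DSY-c2. They belong to the KCNQ family, slowly gating channels that damp excitability. KCNQ3 fell by 4.47 ± 0.51 in DSY-c2 and had 3 counts in all N40 naive libraries, 325-fold below the primed mean with a 95% counting interval of 111 to 1580. KCNQ5 had no count in N40 naive cells, at least 21.1-fold below the primed mean when the group is given 3 counts in all. KCNQ5 became a member through DSY127 and No.40 primed cells alone. The DSY-c2 calls of KCNQ1 (-2.02 ± 0.63) and KCNQ5 (-2.55 ± 0.85) ended without primed library 2 (adjusted p of 0.157 and 0.0605).

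Of 12 members that encode Kv pore or silent Kv subunits, 10 fell and 1 rose in DSY-c2, and 6 fell and 2 rose in N40. KCNC4, a fast Kv channel, fell by 3.04 ± 0.45 and 1.38 ± 0.42 and KCND1, an A-type channel, by 1.63 ± 0.30 and 1.58 ± 0.30, in DSY-c2 and N40. KCNV1, a subunit with no current of its own, read 4.27, 8.79 and 3.27 CPM in DSY-c2 naive against 1.28, 0.581 and 1.17 CPM in primed libraries and rose by 2.59 ± 0.68 (adjusted p = 0.00361). In N40 it rose by 2.22 ± 0.75 (adjusted p = 0.0164), with levels below 1 CPM in every N40 library, and that call ended without N40 naive library 2 (1.81, adjusted p = 0.0702).

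KCNH3, of the ether-a-go-go family of potassium channels, read 38.7, 33.1 and 43.5 CPM in DSY-c2 naive against 20.8, 11.9 and 19.8 CPM in primed libraries, and 13.7, 18.9 and 21.2 CPM in N40 naive against 7.58, 3.42 and 3.43 CPM in primed libraries. It rose by 1.30 ± 0.30 (log2, adjusted p = 0.0014) and 2.0 ± 0.31 (adjusted p = 3.16e-05), without overlap. It was the only KCNH member called higher in either line. KCNH2, the hERG channel of cardiac repolarization, fell in DSY-c2 by 1.54 ± 0.30 and gave -0.54 ± 0.29 in N40 (adjusted p = 0.118).

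The calcium- and sodium-activated potassium channels were divided. KCNN4 and KCNT2, a sodium-activated channel, rose in both lines, KCNT2 by 0.67 ± 0.20 (log2, adjusted p = 0.0102) in DSY-c2, a call that ended without primed library 4 (0.48, adjusted p = 0.0737) or naive library 3 (0.52, adjusted p = 0.0646), and by 1.57 ± 0.21 (adjusted p = 6.71e-06) in N40. KCNMA1, the large-conductance BK channel, fell by 2.19 ± 0.32 in DSY-c2 and by 1.16 ± 0.32 (adjusted p = 0.00468) in N40, where a fit of the N40 groups alone ended the call (-1.26, adjusted p = 0.0515). KCNN3, a small-conductance channel, fell by 3.62 ± 0.74 and 3.74 ± 0.71. KCNN1, of the same group, read 18.2, 24.3 and 25.7 CPM in N40 naive against 18.4, 11.9 and 9.12 CPM in primed libraries, which overlapped, and its rise of 0.89 ± 0.27 ended when N40 primed library 2 or 3 or naive library 2 was left out (0.62 to 0.75, adjusted p of 0.0535 to 0.0821).

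No inward rectifier (KCNJ) and no leak channel (KCNK) rose in either line. Of 4 KCNJ members 4 fell in DSY-c2 and 2 in N40, and of 4 KCNK members 3 fell in each line. The DSY-c2 call of KCNJ16 ended without primed library 4 (adjusted p = 0.178) or any naive library (adjusted p of 0.0665 to 0.092). The N40 call of KCNJ6 ended without primed library 1 or 3 or naive library 1 or 3 (adjusted p of 0.0517 to 0.0957). KCNK6 read 13.8, 10.1 and 17.4 CPM in DSY-c2 naive against 39.6, 55.1 and 40.9 CPM in primed libraries, and fell by 1.56 ± 0.23 (log2, adjusted p = 2.25e-05) there and by 0.68 ± 0.22 (adjusted p = 0.015) in N40. KCNK2, the stretch-sensitive TREK-1 channel, fell by 4.88 ± 0.77 and 2.94 ± 0.69. Its relative KCNK10 had no count in any naive Tg library, at least 21.1-fold below the primed mean in DSY-c2 and at least 18.6-fold in N40. Of 7 auxiliary potassium subunits, 3 fell and 1 rose in each line. The one that rose was KCNAB2, a Kv beta subunit, at 3.65, 3.71 and 8.13 CPM in DSY-c2 naive against 3.14, 1.19 and 1.86 CPM in primed libraries, and 4.61, 8.05 and 7.92 CPM in N40 naive against 2.36, 2.16 and 1.79 CPM in primed libraries. It rose by 1.49 ± 0.37 (adjusted p = 0.00241) and 1.80 ± 0.37 (adjusted p = 0.000504). KCNIP1 and KCNIP4, calcium-binding partners of Kv4 channels, fell in both lines. KCNIP4 reached a mean of 1 CPM in primed groups alone, so its calls use the values that made it a member.

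Whether the naive effect differed between the lines was tested directly, as the log2 effect in DSY-c2 less the log2 effect in N40. It differed for 13 of 72 members, 2 upward and 11 downward, which is 2.78% and 15.3%, beside 6.55% and 8.57% of all genes. The upward share is below and the downward share above that of all genes, as they are beside genes with a symbol (7.69% and 9.7%). For KCNA4, an A-type Kv channel, the sign reversed between the lines (difference -2.96 ± 0.52, adjusted p = 0.00155). KCNA4 read 2.96, 1.76 and 0.833 CPM in DSY-c2 naive against 10.4, 6.91 and 8.01 CPM in primed libraries, and 7.55, 4.28 and 5.96 CPM in N40 naive against 4.87, 2.42 and 2.84 CPM in primed libraries. The last pair overlapped, and the rise of KCNA4 in N40 (0.91 ± 0.36, adjusted p = 0.0374) ended when N40 primed library 2 or 3 or naive library 1 or 3 was left out (adjusted p of 0.0713 to 0.204). SCN4A, CACNA2D3, KCNS3 and CACNA1C fell in DSY-c2, with differences from the N40 change of -2.97 ± 0.52, -2.80 ± 0.57, -2.06 ± 0.49 and -2.17 ± 0.62. CACNA1C also fell in N40, and the other 3 were not called there. The difference of CACNA1C ended when any of 7 libraries was left out (adjusted p of 0.0522 to 0.0746).

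**Figure D4:**
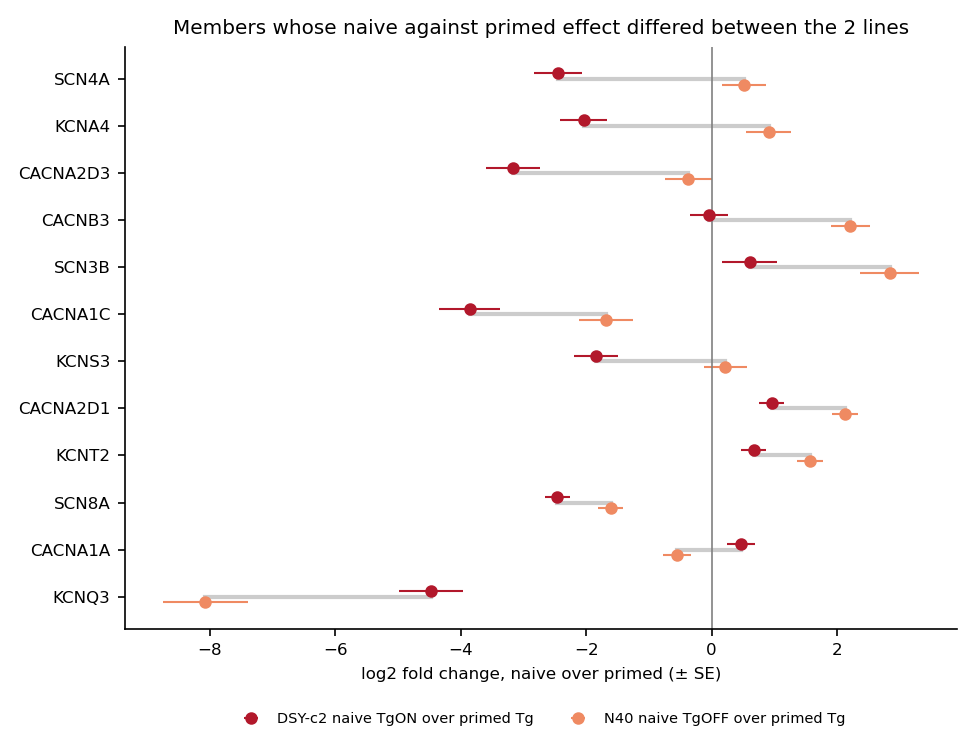
Log2 naive over primed ratio for both lines, with bars of 1 SE, for 12 members whose ratio differed between the lines. KCNA4 lies on opposite sides of 0 and was called in both lines. SCN4A, KCNS3, CACNB3 and CACNA1A also lie on opposite sides but were called in 1 line only.

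By share, fewer members than genes at large differed among the 4 primed groups. A test over DSY-c2 primed, N40 primed, DSY127 and No.40 cells called 19 of the 73 members, or 26%, beside 38.1% of all genes. Of genes with a symbol, 38.8% were called. The 6 members with the smallest adjusted p all had their lowest group mean in N40 primed cells. CACNA2D1 (adjusted p = 4e-06) read 16.8, 15.8 and 16.6 CPM in DSY-c2 primed, 4.05, 3.49 and 2.64 CPM in N40 primed, 17.3, 18.3 and 17.6 CPM in DSY127 and 8.74, 8.83 and 5.87 CPM in No.40 libraries. CACNB4 (adjusted p = 0.000113) read 26.4, 16.9 and 28.8 CPM in DSY-c2 primed, 3.58, 3.76 and 4 CPM in N40 primed, 21.6, 24.1 and 17.5 CPM in DSY127 and 10.02, 8.50 and 7.16 CPM in No.40 libraries. The libraries of N40 primed and of No.40 cells were below those of DSY-c2 primed and DSY127 cells in both genes. KCNH3 (adjusted p = 7.9e-05), KCNG3 (adjusted p = 0.000276), CACNB3 (adjusted p = 0.000393) and KCNMA1 (adjusted p = 0.000582) completed these 6, and KCNMA1 read 0.813 to 1.25 CPM in N40 primed cells against 4.08 to 4.77 CPM in DSY127 cells. All 6 fibroblast markers were also called in this test. They summed to 1049 to 2541 CPM in DSY127 and 1260 to 2359 CPM in No.40 libraries. In DSY-c2 primed libraries they summed to 349.7 to 432.1 CPM and in N40 primed libraries to 606.8 to 869.4 CPM. The lane suffix of the columns also differs between DSY-c2 primed and both DSY127 and N40 primed libraries. The part of either in the channel results was not tested. The naive ratios above are each taken against the primed cells of the same line.

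In embryos the postimplantation epiblast had more channel transcripts than the ICM. Of the 63 members that could be tested, 30 rose and 3 fell in the epiblast relative to the mean of the 5 ICM stages, which is 47.6% and 4.76%, beside 26.1% and 18.7% of all 16929 genes. Of the 10978 tested genes with a symbol, 30.5% were called higher and 17.4% lower. The median log2 difference of the 63 members was 3.27, against 0.20 over all genes. Among 67 matched genes tested without the 1 CPM rule, 34 rose and 3 fell. A gene that reached 1 CPM in the epiblast alone entered through it, so these counts describe the members and carry no test. In 23 of the 30 no epiblast library overlapped an ICM library, and 25 were called in every refit without 1 library. The like shares over all genes are not given here, so these counts are not read as a trait of channel genes. ICM libraries had counts for 30 to 58 members and epiblast libraries for 63 to 68.

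The largest rises came from genes with few or no counts in the ICM, and their size is given as the ratio of mean CPM. CACNB4 read 23.3, 28.6 and 13.6 CPM in the epiblast against a range of 0 to 0.0442 CPM over the 15 ICM libraries, a 3960-fold ratio of means that rests on 4 ICM counts (adjusted p = 4.87e-05). KCNQ3 read 14.2, 18.7 and 20.8 CPM in the epiblast against 0 to 0.384 CPM in the ICM (638-fold, adjusted p = 0.000243). Median ICM levels of both genes were 0. CACNA1G read 65.0, 52.9 and 45.3 CPM in the epiblast against 0 to 1.45 CPM in the ICM (359-fold, adjusted p = 8.57e-05). KCNMA1 read 34.9, 24.1 and 15.5 CPM against 0 to 1.51 CPM (105-fold, adjusted p = 0.000124), and KCNH5, an ether-a-go-go channel of the brain, 12.1, 8.41 and 4.501 CPM against 0 to 0.571 CPM (178-fold, adjusted p = 8.57e-05).

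Calcium channel alpha1 subunits made up a large group of the genes that rose, with 6 of 9 called higher in the epiblast. CACNA1B read 48.0, 39.5 and 75.1 CPM in the epiblast against 0 to 5.54 CPM in the ICM, and rose by 6.52 ± 1.05 (log2, SE, adjusted p = 0.000113). CACNA1A, the P/Q-type channel of nerve terminals, read 18.9, 20.1 and 18.9 CPM against 0.0580 to 7.06 CPM and rose by 4.13 ± 1.04 (adjusted p = 0.00389). CACNA1H read 37.6, 49.0 and 28.1 CPM against 0.0361 to 11.1 CPM and rose by 3.02 ± 0.91 (adjusted p = 0.0125). Kv subunits followed with 5 of 11 called higher. KCNC4 read 33.8, 41.4 and 35.7 CPM in the epiblast against 0.863 to 25.9 CPM in the ICM (2.39 ± 0.61, adjusted p = 0.00431). KCNS3, a Kv subunit with no current of its own, read 45.3, 41.7 and 47.0 CPM against 0 to 30.5 CPM (3.65 ± 0.93, adjusted p = 0.00436), and KCNG3, of the same kind, 21.9, 31.4 and 34.5 CPM against 0 to 11.0 CPM (5.10 ± 1.52, adjusted p = 0.0115).

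Of the 5 sodium channel alpha subunits tested in embryos, 3 were called higher in the epiblast, SCN3A and SCN10A among them, and SCN9A fell. SCN3A read 3.44, 0.430 and 0.454 CPM in the epiblast against at most 0.0759 CPM in any ICM library. SCN3A and SCN10A reached a mean of 1 CPM in the epiblast alone, so their calls there use the values that made them members. SCN10A missed the threshold with DESeq2 (adjusted p = 0.0536). No alpha2delta subunit was called in either direction. Members not tested in embryos, for want of counts, were CACNG5, CACNG6, KCNB2, KCNH4, KCNK10, KCNQ5, SCN11A, SCN1A, SCN4A and SCN7A.

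Marker lists of other cell types differed between these stages as well. The 6 fibroblast markers summed to 1527 to 1729 CPM in the epiblast against 0 to 28.9 CPM in the ICM, and all 6 were called higher in the epiblast. The 5 muscle markers summed to 22.6 to 38.5 CPM in the epiblast against 0 to 31.0 CPM in the ICM, where hatched library 1 was the highest, and the 3 tested were called higher in the epiblast. The 8 neuron markers summed to 262.2 to 284.1 CPM in the epiblast against 143 to 818.1 CPM in the ICM, so these ranges overlapped. By gene, 4 of the 8 rose and 1 fell in the epiblast, with a median log2 difference of 3.37, close to the 3.27 of the channel members. The 3 neural progenitor markers had a median of 3.50, and 2 of them rose. Trophectoderm markers summed to 72.5 to 85.6 CPM in the epiblast against 1.37 to 1226 CPM in the ICM, and primitive endoderm markers to 488 to 548 CPM against 477 to 3879 CPM. The part of these cell types in the channel results was not tested.

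**Figure D5:**
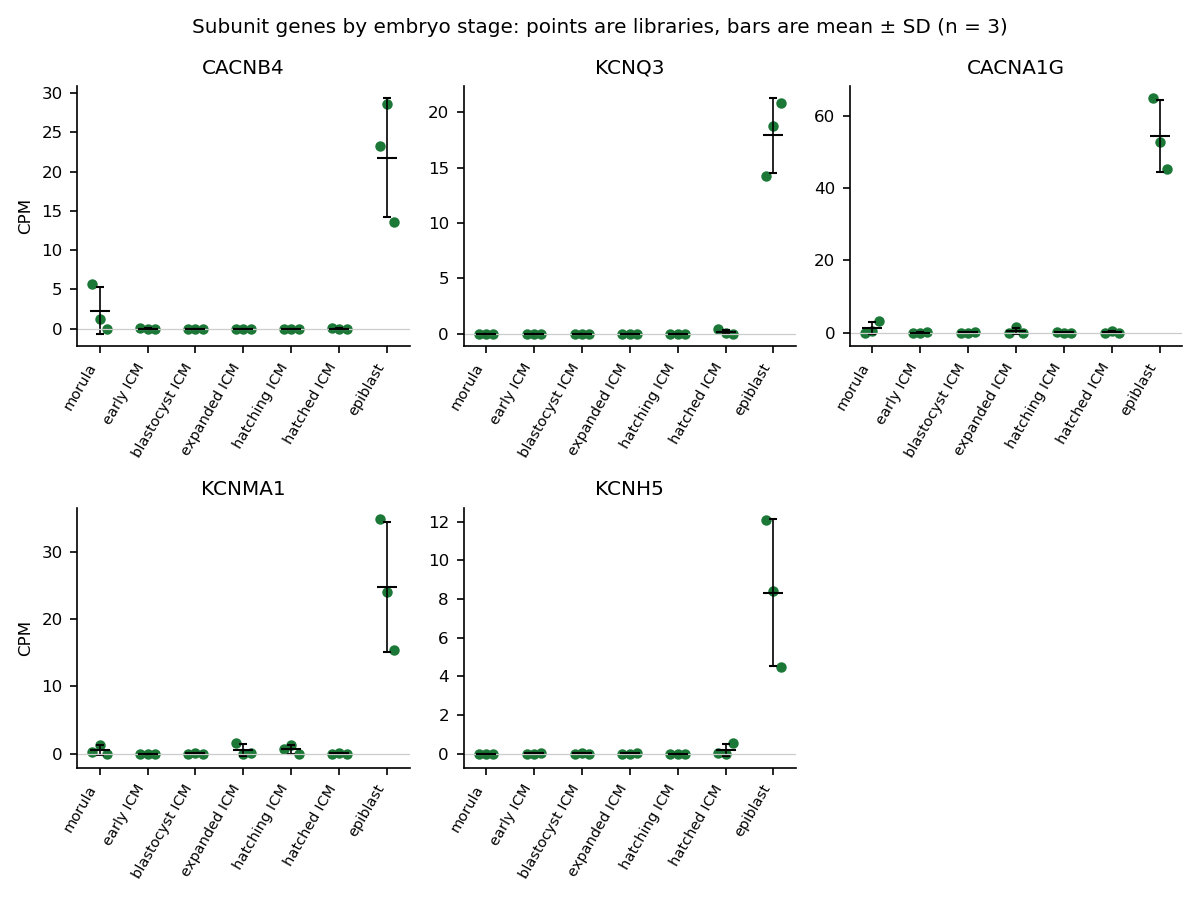
CPM of CACNB4, KCNQ3, CACNA1G, KCNMA1 and KCNH5 over the 7 embryo stages in developmental order, with 1 point per library and the mean ± SD of 3 libraries. The epiblast libraries of each gene lie above all its ICM libraries, and CACNB4 also has morula libraries at 5.72 and 1.18 CPM.

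Between the ICM stages and the morula few members changed. Of 63 tested, 1 rose and 10 fell in the ICM mean, which is 1.59% and 15.9%, beside 8.65% and 12.2% of all genes, so the count of falls is close to the background. Of genes with a symbol, 9.96% rose and 13.3% fell. CACNB4 and KCNJ6 kept their falls in every refit without 1 library although their libraries overlapped, and the calls of CACNA1D, CACNA1G, KCNH6, KCNJ4 and KCNN1 each ended without at least 1 morula library. The single rise, KCNA4, rests on 2 counts in the morula and ended when any of 12 libraries was left out (adjusted p of 0.0502 and up). With DESeq2 6 members rose and 7 fell, so the balance of rises and falls depends on the test.

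Over the 7 stages together 25 of 63 members varied, or 39.7%, beside 38% of all genes, a share near that of all genes. Of genes with a symbol, 42.5% varied. The 6 with the smallest adjusted p were KCND1 (0.00127), KCNH5 (0.00167), CACNB4 (0.00194), KCNQ3 (0.00377), CACNA1G (0.00379) and CACNA1B (0.00392), and all 6 had their highest mean in the epiblast. KCND1, an A-type Kv4 channel, had no count in the morula, at most 0.189 CPM in any ICM library and 3.44, 6.12 and 2.08 CPM in the epiblast. KCNQ3 missed the threshold with DESeq2 (adjusted p = 0.145).

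The 33 members that were lower in both naive groups were set beside the embryo comparison. Of these, 27 could be tested in embryos and 21, or 77.8%, were higher in the epiblast than in the ICM. Over all genes lower in both naive groups and tested in embryos, 2142 of 3466, or 61.8%, were higher in the epiblast. The 21 make up 70% of the 30 members that rose in the epiblast, where the like share over all genes is 50%. Of the 8 members higher in both naive groups, KCNN4 fell in the epiblast, KCNT2 was called higher there and the other 6 were not called. The call of KCNT2 in the epiblast (13.4, 6.04 and 5.94 CPM against 0 to 5.94 CPM in the ICM, adjusted p = 0.0299) ended without epiblast library 1 (0.115) or 2 (0.0502). The naive effects and the embryo effect come from separate libraries, but members entered by their level in any of these groups.

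Other ion transport genes were also counted. A list of 68 pumps, exchangers, intracellular calcium channels and channel partners outside the rule had 55 genes in the counts and 54 tested in ESCs. In DSY-c2 naive cells 14 rose and 27 fell, which is 25.9% and 50%, beside 29.6% and 29.3% of all genes, so the share of rises is near the background. In N40 naive cells 10 rose and 29 fell, which is 18.5% and 53.7%, beside 32.3% and 28.7% of all genes. The median log2 difference of the list was -0.57 in each line. Both lines called 8 higher, among them SCNN1A, HVCN1, TRPM7, ITPR1, ATP1B1, ATP2B1 and ATP2B4, and 22 lower. For this list too, the overlap between the lines is given without the like counts over all genes. HVCN1, the voltage-gated proton channel, averaged 140.7 CPM in DSY-c2 naive and 11.52 CPM in DSY-c2 primed cells, and 144.6 CPM in N40 naive and 6.457 CPM in N40 primed cells. The 22 that fell included the Kv4 partner DPP6, which averaged 0.4605 CPM in DSY-c2 naive and 29.88 CPM in DSY-c2 primed cells. They also held the sodium channel partners FGF13, ANK2 and ANK3 and the sodium-calcium exchanger SLC8A1. In embryos 28 of the 49 tested rose and 2 fell in the epiblast relative to the ICM mean, which is 57.1% and 4.08%, beside 26.1% and 18.7% of all genes.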

How the data were processed

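Stranded TruSeq libraries were prepared from poly(A)+ RNA, per the labels' protocols. The submitters' processing notes name Trim Galore 0.4.0, STAR 2.5.3a and featureCounts 1.5.2. The genome build, gene annotation and strand setting were not given in the sources used here. Raw counts per gene were deposited by the authors, in 78 columns that are 2 lanes of each of 39 libraries. Lanes were summed, because their chi-square per gene was 1.91 to 2 within a library and 28.1 or more between libraries. A further 6 columns match no sample here and were not used. Even numbers made up 64.1% of counts from 1 to 49 but 50.7% from 500 up, so both mates of a pair seem to be counted, and counting intervals, which cover counting error only, are optimistic.

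Gene IDs gave a symbol for 12660 of 30811 genes (41.1%). The quasi-likelihood test of edgeR 4.0.16 (R 4.3.3; robust, filterByExpr, TMM) was run on the 18 ESC libraries (17957 genes) and, apart from them, on the 21 embryo libraries (16929 genes). A call is a Benjamini-Hochberg adjusted p under 0.05 over all genes tested, and every adjusted p is of this test unless DESeq2 is named. SE was taken as the log2 change divided by the square root of F. CPM are on total counts, and TMM factors were 0.904 to 1.07. Folds over a group at 0 take 3 counts for that group as a floor.

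Values of every library were planned for SCN9A and, per comparison, for the 6 largest rises and 6 largest falls among called members that reached 5 CPM in 1 group and whose libraries did not overlap. In the tests over several groups the 6 smallest adjusted p were named, and any member could be named by its means. Further members given by library, among them SCN8A, SCN3B, KCNK6, KCNN1, KCNA4, KCND1, KCNT2 and several that rose in the epiblast, were picked after their values were seen. The members and all lists were chosen with earlier results of these data known. Replicate numbers occur in both N40 groups and in all embryo stages, but same-numbered libraries did not deviate together, so the fits have no block. Alternatives were other size factors, other low-count filters, DESeq2 1.42.0, fits of only the groups compared, the replicate block and each library left out. Sequences were not analysed here. Results of several genes are not reported here.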

Additional observations from a re-analysis of the deposited data

Results flagged for a closer look

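For 12 members given here the naive effect (log2, naive over primed) differed between DSY-c2 and N40 by the test of the difference itself, given here as DSY-c2 minus N40 with its SE. Because each line carries its own transgene label, the lines and the labels cannot be told apart. KCNA4 (-2.96 ± 0.52) fell in DSY-c2 and rose in N40. SCN4A (-2.97 ± 0.52), CACNA2D3 (-2.80 ± 0.57) and KCNS3 (-2.06 ± 0.49) fell in DSY-c2 and were not called in N40. CACNB3 (-2.25 ± 0.43) and SCN3B (-2.24 ± 0.63) rose in N40 and were not called in DSY-c2. CACNA2D1 (-1.17 ± 0.28) and KCNT2 (-0.90 ± 0.29) rose in both lines and less in DSY-c2. CACNA1C (-2.17 ± 0.62) and SCN8A (-0.86 ± 0.28) fell in both and more in DSY-c2. CACNA1A was 1.03 ± 0.31 and fell in N40 alone. KCNQ3 was 3.60 ± 0.89, fell in both lines, and rests on 3 counts in N40 naive cells. Leaving out 1 library ended the difference of SCN3B for 5 libraries (-2.13 to -1.66), of CACNA1A for 6 (0.91 to 1.07), of CACNA1C for 7 (-2.09 to -1.67), of KCNT2 for 9 (-0.98 to -0.66) and of SCN8A for 10 (-0.90 to -0.68), and other size factors or no low-count filter also ended those of KCNT2 and SCN8A. The cause was not tested.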

How the results depend on the processing

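No called member reversed its direction under any alternative run. Single calls held in 1605 refits without 1 library and ended in 159, and held in 1059 other alternatives and ended in 46. With DESeq2 the difference between the lines held 20 calls, against 13 with edgeR, and with only the groups compared in the fit the ICM and morula comparison held 6, against 11. For SCN9A, the fit of only the groups compared gave -3.33 for epiblast against ICM and ended the call, while DESeq2 gave 2.83 for ICM against morula and an adjusted p of 0.00729 over the 7 stages, which both passed. The causes were not tested. With 1 library left out at a time, the members called ranged from 50 to 55 in DSY-c2 naive against primed, 43 to 46 in N40, 8 to 15 for the difference (8 without N40 primed replicate 3), 12 to 21 over the primed groups (12 without N40 primed replicate 2), 27 to 41 in epiblast against ICM, 5 to 12 in ICM against morula (5 to 7 without any 1 morula library) and 16 to 29 over the 7 stages (16 without epiblast replicate 2). For SCN9A these refits gave -5.37 to -2.83, 2.70 to 3.11 and adjusted p of 0.0221 to 0.142 in the 3 embryo tests. In the lane suffix of the columns DSY-c2 naive replicate 3 differs from the other DSY-c2 libraries, and without it 7 members rose and 47 fell. Same-numbered libraries correlated at -0.0885 to -0.0298 in N40, over 3 pairs, and at a median of 0.00729 (-0.179 to 0.133) in embryos. No pairing by number was seen, but so few N40 pairs cannot exclude it. With the replicate block, 39 members were called in N40 in a fit of its 2 groups, 33 in epiblast against ICM, 8 in ICM against morula and 24 over the stages, and SCN9A gave -3.81, 2.67 and an adjusted p of 0.0727. The fit of the 2 N40 groups without the block called 42. Low counts limit the embryo fold changes, since ICM libraries had counts for 30 to 58 of the 73 members.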
